A study of Mus musculus with 6 samples.

Results

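The genes described are 10 neighbours of Bcl11a on mouse chromosome 11, given in the order in which they lie there: Aftph, Lgalsl, Peli1, Xpo1, Usp34, Pex13, Pus10, Rel and Papolg before Bcl11a, and Vrk2 after it. They were chosen by name, and every probe set annotated to one of them alone was taken, which gave 26 of the 45037 probe sets of the array and 10 of its 18193 named genes. The choice was made with the knockout against control values of these arrays known, so the differences of these 10 genes between the groups are given as a description.

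Erythroid progenitors positive for CD71, the transferrin receptor, and for Ter119, an erythroid surface antigen, had been sorted from female mice, aged 6 weeks, out of bone marrow. The 3 control mice were Bcl11a +/+ and the 3 knockout mice Bcl11a fl/fl EpoR-Cre+. The knockouts thus carried Cre recombinase, named for the erythropoietin receptor. The titles of the control samples give Bcl11a +/+ and name no Cre, but those of the knockout samples name none either. The titles thus do not tell whether the controls carried Cre. Each mouse gave 1 Affymetrix array, with values deposited as intensities on a linear scale. The strain of origin of the Bcl11a fl allele, the part of the gene that it removes and the background of either group are details the sources used here do not give.

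Bcl11a encodes a zinc finger repressor that keeps embryonic globin genes silent in adult red cells. Genes close to an engineered allele are inherited together with it through the crosses that bring the allele into a colony. The neighbours of Bcl11a have unrelated known functions, among them membrane traffic, innate immune signalling, nuclear export, peroxisome assembly and RNA processing, so what they have in common is their place on the chromosome.

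The arrays had median intensities between 67.5 and 70.9. The erythroid marker list stood at summed intensities of 66965 to 81503 in the controls and 83429 to 92021 in the knockouts, over 7 measured genes, of which 5 had a log2 change above 0. Tfrc, which encodes CD71, averaged 14288 in control mice and 18544 in knockout mice (limma, adjusted p = 0.311). None of the 7 erythroid genes had an adjusted p under 0.05 (limma), against 0.214% of all genes. With robust moderation that followed an intensity trend, Gata1, Tfrc and Ermap passed upward (limma, adjusted p = 0.00857, 0.0156 and 0.0284). The share of all genes there was 4.22% in either direction. The other erythroid genes did not pass. Alas2, at a log2 change of -0.06, and Epor, at -0.14, were the 2 below 0. Markers of other bone marrow cells were bright too: the 10 neutrophil genes summed to 209496 to 210603 in the controls and 193209 to 201048 in the knockouts. The neutrophil gene S100a8 had the brightest of all probe sets, at means of 39933 in controls and 38723 in knockouts. Alas2, the brightest of the erythroid markers, had 24927 and 23900.

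Of the 10 genes, the pair that lies farthest from Bcl11a stood far higher in the knockout, and the 8 nearer ones differed little. Aftph encodes aftiphilin, an accessory protein of clathrin-coated vesicles, and was 4.1 times as bright in the knockout mean as in the control mean. Lgalsl, the next gene along, encodes a galectin-related protein, and was 3.16 times as bright. The log2 changes of the other 8, each read by its brightest probe set, lay between -0.26 and 0.27. Over the 26 probe sets, 5 passed the test in the upward direction (limma, Benjamini-Hochberg adjustment over all probe sets, threshold of 0.05), against 0.14% of all probe sets, and 0 passed downward, against 0.00666%. All 5 belonged to Aftph and Lgalsl. At an unadjusted p under 0.05 there were 9 higher and 1 lower, against 7.21% and 5.21% of all probe sets. When the moderation was robust and followed an intensity trend (called the trend fit below), 6 passed upward and 0 downward, against 3.21% of all probe sets in either direction. With 1 mouse left out, 1 to 4 passed upward, fewest without knockout mouse 2. The choice of the members used this contrast, so nothing is read from these shares.

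**Figure D1:**
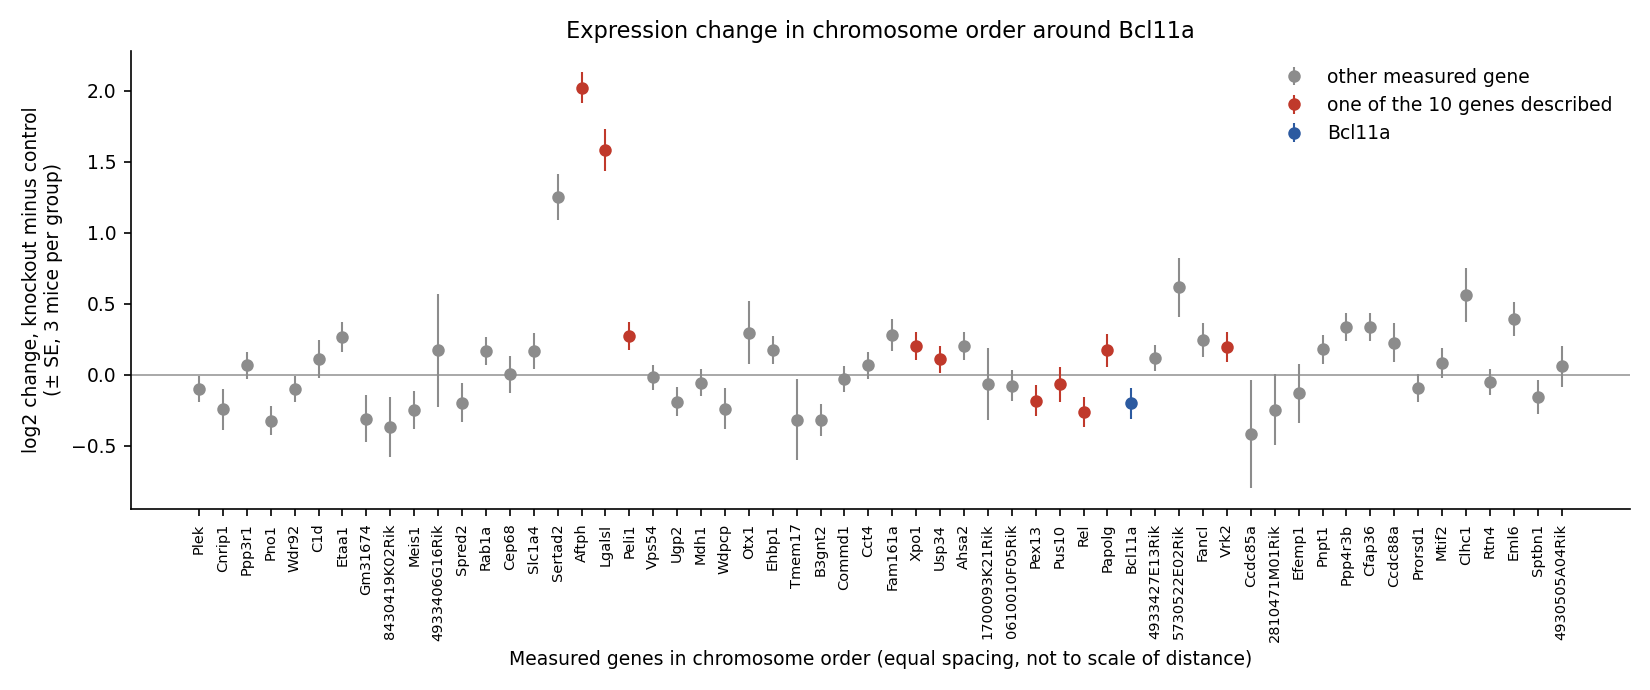
Log2 change (knockout minus control, ± SE from the fit, 3 mice per group) of the 58 measured genes of the neighbourhood, in chromosome order with equal spacing; red points are the 10 genes described, the blue point is Bcl11a and grey points are other genes. Sertad2, Aftph and Lgalsl, side by side, stand at 1.25, 2.02 and 1.58, and all other points lie between -0.42 and 0.62.

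Promoter windows are given for Aftph and Lgalsl and for Sertad2, the gene on their far side, because these genes stood high together. Pex13 does not border them and did not move with them. Its window was added because it is one of the 2 that hold a match to the motif of BCL11A. All these windows are RefSeq sequences of the mouse assembly GRCm38.p6, written 5′ to 3′ on the gene's own strand. Each has 250 bases before and 50 bases after the annotated start. The window of Aftph is chr11:20741507-20741806 on the minus strand, that of Lgalsl chr11:20831059-20831358 on the minus strand, that of Sertad2 (the first of 2 listed) chr11:20542916-20543215 on the plus strand, and that of Pex13 chr11:23665834-23666133 on the minus strand. Capitals mark matches on either strand to TGACCA, the motif known for BCL11A, to AGATAA or TGATAA, the GATA motif, to CCACACCC, a motif of Kruppel-like factors, and to CCAAT, the motif of NF-Y; no matches overlapped.
Aftph: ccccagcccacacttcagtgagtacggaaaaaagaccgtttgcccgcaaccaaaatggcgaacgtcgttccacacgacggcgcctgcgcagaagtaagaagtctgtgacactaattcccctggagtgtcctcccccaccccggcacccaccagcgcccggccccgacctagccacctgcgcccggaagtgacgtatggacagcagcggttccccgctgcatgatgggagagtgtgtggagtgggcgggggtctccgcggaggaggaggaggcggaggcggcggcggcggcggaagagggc
Lgalsl: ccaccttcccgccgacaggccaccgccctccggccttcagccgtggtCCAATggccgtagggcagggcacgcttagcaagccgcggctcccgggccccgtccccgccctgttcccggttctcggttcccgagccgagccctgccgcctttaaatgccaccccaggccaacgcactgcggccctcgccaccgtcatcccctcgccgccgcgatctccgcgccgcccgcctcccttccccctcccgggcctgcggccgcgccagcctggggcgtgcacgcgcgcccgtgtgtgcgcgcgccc
Sertad2: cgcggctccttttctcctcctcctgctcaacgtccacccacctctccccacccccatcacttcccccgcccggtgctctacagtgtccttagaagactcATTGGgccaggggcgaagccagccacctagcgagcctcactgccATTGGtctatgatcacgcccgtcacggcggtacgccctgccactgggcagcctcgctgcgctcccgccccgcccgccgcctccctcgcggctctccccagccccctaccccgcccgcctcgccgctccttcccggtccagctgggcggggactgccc
Pex13: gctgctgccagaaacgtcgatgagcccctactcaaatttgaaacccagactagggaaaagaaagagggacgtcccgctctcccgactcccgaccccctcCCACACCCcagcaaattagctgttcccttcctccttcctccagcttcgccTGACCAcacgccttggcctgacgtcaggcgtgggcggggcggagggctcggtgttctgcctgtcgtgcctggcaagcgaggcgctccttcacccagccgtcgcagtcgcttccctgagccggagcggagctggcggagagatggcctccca

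Neither Aftph nor Lgalsl held TGACCA in its window. Among the first listed windows of the 10 genes, TGACCA was found in 2, those of Pex13 and Pus10, and 13.6% of all 32851 promoter windows hold it. These are the same match, since both genes start close together on opposite strands and their windows share 208 bases. The GATA motif was in 0 of the 10, against 18.6% of all windows, CCACACCC was in those of Pex13 and Pus10 again, against 3.56%, and CCAAT was in 3, those of Lgalsl, Xpo1 and Papolg, against 37.4%. The window of Sertad2 held CCAAT at 2 places. G and C made up 66% of the window of Aftph, 76.3% of that of Lgalsl and 44.3% of that of Vrk2, with a median of 52.7% over all windows. These matches describe letters in a window and not binding.

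Aftph was read by 5 probe sets, annotated to 3 different sequence records. The brightest had intensities of 1684, 1843 and 1862 in the control mice and 6639, 7522 and 7927 in the knockout mice. The 3 control values lie close together, and the lowest knockout value is far above all of them. The means were 1796 ± 97.8 and 7363 ± 659 (SD, n = 3), a log2 change of 2.02 ± 0.11 (SE of the fit). The second probe set went from 1314, 1250 and 1232 to 3970, 4686 and 5026, a log2 change of 1.83 ± 0.12. A dim one went from 72.4, 75.2 and 62.7 to 241, 281 and 284, a log2 change of 1.72 ± 0.12. These are the 3 of 5 that passed, and the 2 bright ones are annotated to the same sequence record.

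The remaining probe sets of Aftph, which share a sequence record and did not pass, had log2 changes of 1.16 ± 0.20 and 0.81 ± 0.18. The dimmer of them had control values of 28.4, 27.5 and 26.8 and knockout values of 48.7, 53.0 and 83.3, so that knockout mouse 3 stood apart from the other knockouts. In all 5 probe sets the lowest knockout exceeded the highest control, a separation seen in the upward direction in 10.6% of all probe sets. Changes are of log2(intensity + 16), which understates those of dim probe sets. Aftph ranked 17 of 18193 genes by the size of its log2 rise.

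Lgalsl was read by 2 probe sets annotated to the same sequence record, and both passed. The brighter had intensities of 228, 177 and 180 in the controls and 528, 649 and 672 in the knockouts. Control mouse 1 was the highest control and knockout mouse 1 the lowest knockout, and the gap between them was wider than the spread within either group. The means were 195 ± 28.5 and 616 ± 76.9 (SD, n = 3), a log2 change of 1.58 ± 0.15 (SE). The other probe set went from 132, 187 and 159 to 653, 691 and 722, a log2 change of 2.02 ± 0.14. Since these probe sets share that record, they are not taken as separate evidence for the gene. How far their probes overlap was not compared. Leaving out any 1 of the 6 mice ended the call of the brighter probe set, while its log2 change stayed between 1.52 and 1.69.

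**Figure D2:**
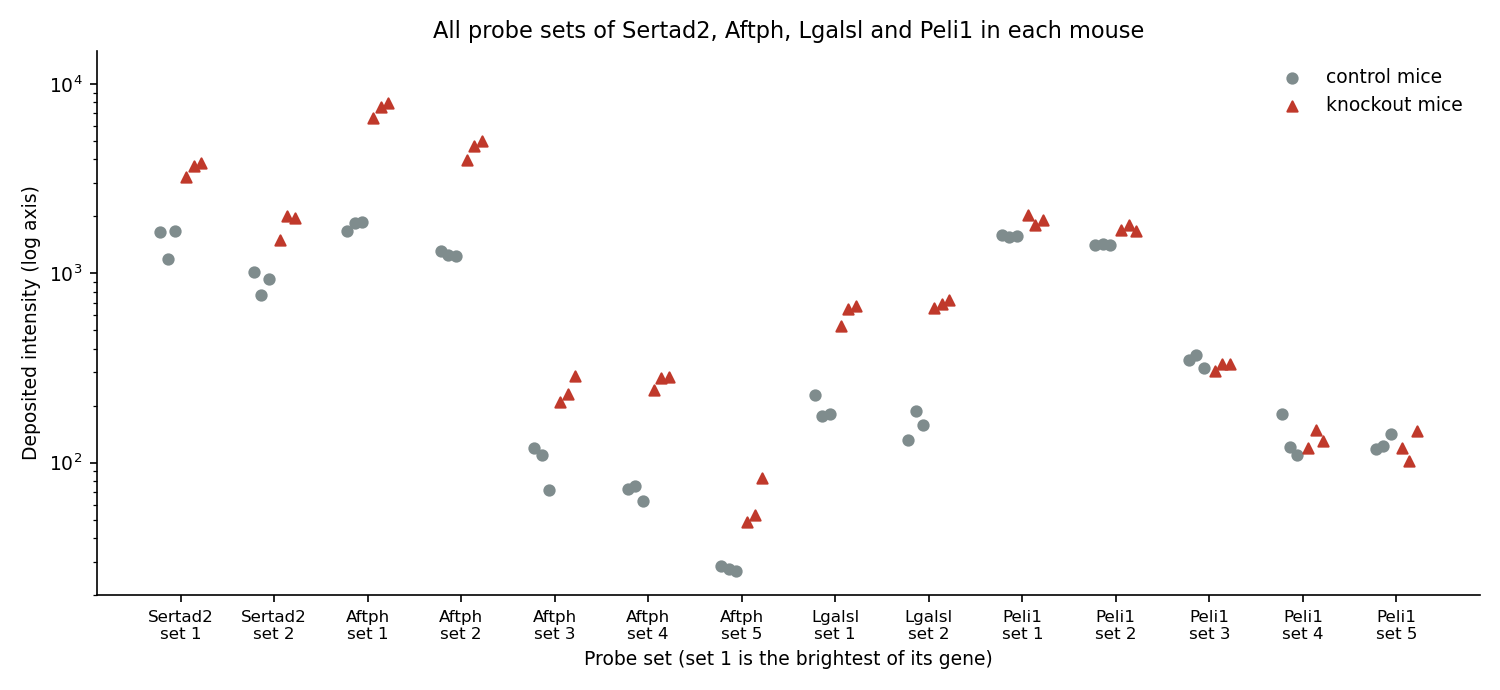
Deposited intensity (log axis) of every probe set of Sertad2, Aftph, Lgalsl and Peli1 in each mouse, with grey circles for the 3 controls and red triangles for the 3 knockouts; set 1 is the brightest of its gene. The groups are apart in both sets of Sertad2, all 5 of Aftph and both of Lgalsl, and in Peli1 only the sets 1 and 2 show a gap, a small one.

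Sertad2, a transcriptional coregulator that interacts with PHD-bromodomain proteins, is the measured gene just before Aftph and is not among the 10. Its brighter probe set had intensities of 1649, 1197 and 1672 in the controls and 3233, 3679 and 3834 in the knockouts. Control mouse 2 was lower than the other controls, and every knockout was above every control. The log2 change was 1.25 ± 0.16 (SE), which did not pass (limma, adjusted p = 0.0736). The second probe set went from 1022, 773 and 936 to 1503, 2017 and 1967, a change of 0.99 ± 0.17 (adjusted p = 0.115). The call of the brighter one depended on the fit: it passed in the trend fit (adjusted p = 0.000107), among the 50% of probe sets that are brightest (adjusted p = 0.00747), with 64 in place of 16 added to the intensity (adjusted p = 0.00755) and with 1 probe set per gene (adjusted p = 0.0457), and over all alternatives its adjusted p ran from 0.000107 to 0.431. In the brightest probe sets of Aftph, Lgalsl and Sertad2 alike, knockout mouse 1 was the lowest knockout and mouse 3 the highest, an order also seen in Xpo1, Papolg, Vrk2 and Fancl and found in 18.4% of all probe sets.

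The step on both sides of these 3 genes was sharp. The 15 measured genes before Sertad2 had log2 changes between -0.37 and 0.27, with a median of -0.10, and Slc1a4, the amino acid transporter gene just before it, had 0.17 ± 0.13. On the other side, Peli1 had 0.27 ± 0.10. The 21 measured genes that lie between Lgalsl and Bcl11a had changes between -0.32 and 0.30, with a median of -0.03 against 0.00 over all 18193 genes. On this side of Bcl11a, the high values did not form a slope that grew towards it. Papolg, the neighbour next to Bcl11a there, had 0.17 ± 0.12, while Lgalsl lay 22 measured genes away. The cause of this order was not tested.

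Peli1, a ubiquitin ligase of the Toll-like and interleukin-1 receptor pathways, was read by 5 probe sets. The brightest had intensities of 1600, 1553 and 1584 in the controls and 2033, 1793 and 1917 in the knockouts, and the next 1408, 1433 and 1417 against 1699, 1800 and 1674. In both, the lowest knockout was above the highest control. Their log2 changes were 0.27 ± 0.10 and 0.28 ± 0.09 (SE), and neither passed. The other 3, all dimmer, had changes of -0.09, -0.02 and -0.06 with groups that overlap, so the probe sets of Peli1 differ in sign.

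Xpo1 encodes the exportin that carries proteins with a nuclear export signal out of the nucleus. Its brightest probe set had intensities of 3177, 3096 and 3221 in the controls and 3471, 3571 and 3899 in the knockouts. The groups do not overlap, and knockout mouse 3 is the highest. The log2 change was 0.20 ± 0.10. The second probe set, annotated to the same sequence record, had 0.08 ± 0.09. The dimmest read intensities of 1 to 8.19, near the low end of the values.

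Usp34 encodes a large ubiquitin protease known to act on axin in Wnt signalling. Its brightest probe set had 1728, 1718 and 1761 in the controls and 1794, 1951 and 1871 in the knockouts. Knockout mouse 1 was close to the highest control, although the groups do not overlap. The log2 change was 0.11 ± 0.09, and the other 2 probe sets had -0.05 and 0.03 with groups that overlap.

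Pex13 and Pus10 share the promoter region shown above and are transcribed away from each other. Pex13, a membrane protein of the peroxisomal import machinery, had 584, 623 and 584 in the controls and 551, 554 and 470 in the knockouts. All knockouts were below all controls, mouse 3 by most. Its log2 change was -0.18 ± 0.11, while a dim second probe set had 0.45 ± 0.29 with groups that overlap. Pus10, a pseudouridine synthase that modifies RNA, had 413, 413 and 473 in the controls and 453, 421 and 365 in the knockouts, values that overlap, and a log2 change of -0.07 ± 0.12. Without knockout mouse 3 its change was 0.01.

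Rel encodes c-Rel, a subunit of the transcription factor NF-kappaB with its best known roles in lymphocytes. Its only probe set had 249, 215 and 233 in the controls and 187, 205 and 180 in the knockouts. The highest knockout was just below the lowest control. The log2 change was -0.26 ± 0.11, the lowest of the 10, and it did not pass. The markers of pre-B and B cells were lower as well: all 9 measured genes of that list had changes below 0, with a median of -0.37. Over all 18193 genes, 9139 had changes below 0. The summed intensity of the list was 18217 to 21624 in the controls and 12935 to 17662 in the knockouts. In the main fit 0 of the 9 passed (limma), against 0.214% of all genes. In the trend fit Igll1, Vpreb1 and Vpreb3 passed downward, at log2 changes of -1.31, -1.19 and -0.56 (limma, adjusted p = 0.00997, 0.0202 and 0.0181). The share of all genes there was 4.22% in either direction, and the other genes of the list did not pass. The neutrophil list, with 9 of 10 genes below 0, and the basophil and mast cell list, with 9 of 9, were lower too. The part of any of these cells in the value of Rel was not tested. In bulk samples, fewer cells of a type cannot be told apart from less RNA per cell.

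Papolg encodes a nuclear poly(A) polymerase and is the last measured gene before Bcl11a. It had 594, 638 and 637 in the controls and 625, 718 and 776 in the knockouts, where knockout mouse 1 lay within the control range. The log2 change was 0.17 ± 0.12, and a dim second probe set had -0.09 ± 0.14. Vrk2, a membrane-bound serine/threonine kinase, lies on the other side of Bcl11a, 4 measured genes away. Its brightest probe set, one of 3 probe sets among the 26 whose name ends in _s_at and whose probes can match more than 1 transcript, had 876, 860 and 922 in the controls and 947, 999 and 1113 in the knockouts. The groups do not overlap, and the log2 change was 0.20 ± 0.11. The second had 0.15 ± 0.14 with groups that overlap.

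**Figure D3:**
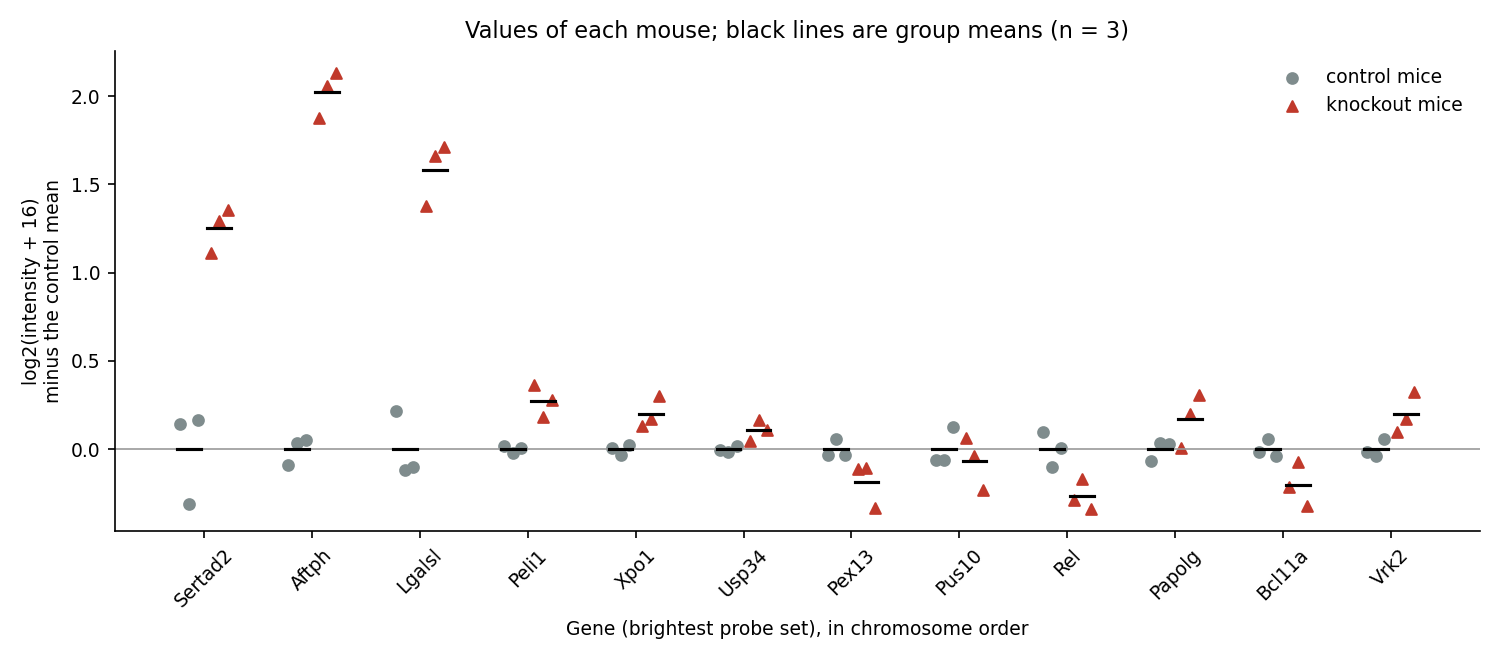
Values of each mouse for Sertad2, the 10 genes and Bcl11a (brightest probe set of each), as log2(intensity + 16) minus the control mean; grey circles are controls, red triangles knockouts and black lines group means (n = 3). The knockouts of Sertad2, Aftph and Lgalsl lie more than 1 unit above the control mean, and the knockouts of all other genes shown lie within 0.5 of it.

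Counted over the 10 brightest probe sets, 7 had a change above 0 and 3 below, with a median of 0.18. The groups did not overlap in 6 upward and 2 downward, against 21.6% of all genes in either direction and 12.3% upward. Over the 26 probe sets they did not overlap in 12 upward and 2 downward, against 19.5% of all probe sets in either direction and 8.91% downward. When each gene was instead given the average over its probe sets, the median was 0.07.

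Bcl11a itself, between Papolg and Vrk2, was read by 7 probe sets whose changes differed in sign. The brightest had 1475, 1553 and 1450 in the controls and 1286, 1419 and 1190 in the knockouts, a log2 change of -0.20 ± 0.11 (SE). Another had 918, 971 and 853 against 1069, 1115 and 1047, a change of 0.23 ± 0.10. In each of these the groups do not overlap, in opposite directions. The remaining 5 ranged from -0.40 to 0.32, and none of the 7 passed (limma, adjusted p = 0.304 to 0.950). The sources used here do not give which of these probes lie in the part removed by Cre.

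**Figure D4:**
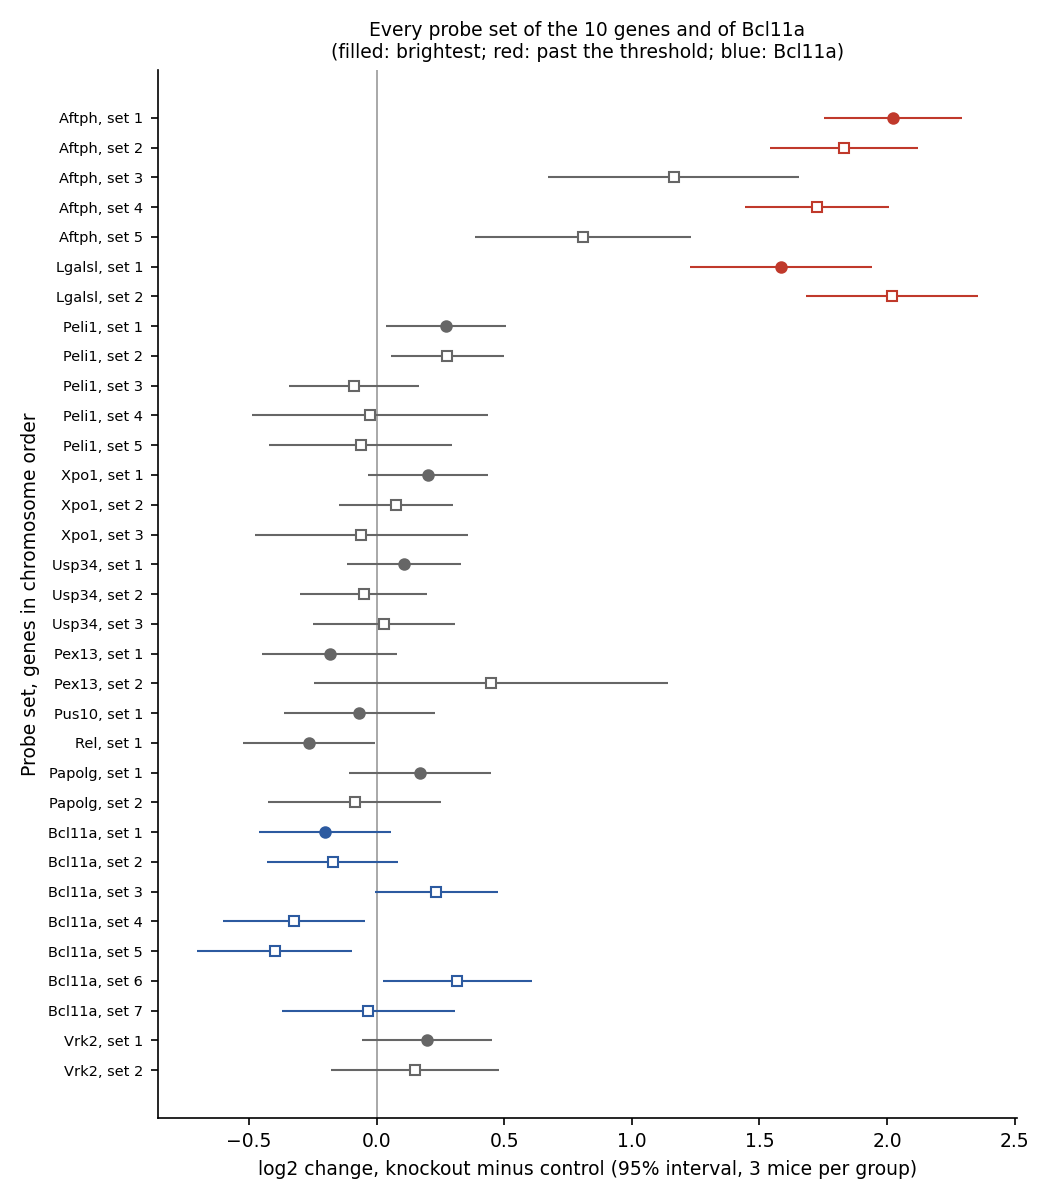
Log2 change (knockout minus control) with its 95% interval for each of the 26 probe sets of the 10 genes and the 7 of Bcl11a, in chromosome order; filled circles are the brightest of a gene, open squares the others, red marks those past the threshold and blue those of Bcl11a. All 5 probe sets past the threshold belong to Aftph and Lgalsl, and the 3 dimmer sets of Peli1 lie below 0 while its 2 brighter ones lie above.

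The neighbourhood was widened to all measured genes from the 15th protein-coding gene before Aftph to the 15th after Vrk2, which gave 58 genes. Aftph and Lgalsl passed in it (Aftph alone when any 1 of the mice was left out), and 0 of the other 56 did (limma, 2 more in the trend fit), with 8 higher and 2 lower at an unadjusted p under 0.05 among the 47 that are neither among the 10 nor Bcl11a, against 8.18% and 4.53% of all genes. The median of these 47 was 0.00. After Sertad2, the smallest p-values among them were those of Cfap36, a cilia and flagella associated protein, and Ppp4r3b, a regulatory subunit of protein phosphatase 4, which are next to each other on the far side of Vrk2. Cfap36 had 598, 643 and 603 in the controls and 749, 772 and 819 in the knockouts, a log2 change of 0.34 ± 0.10 (SE, adjusted p = 0.265). Ppp4r3b had 1160, 1194 and 1251 against 1550, 1582 and 1433, also 0.34 ± 0.10 (adjusted p = 0.269), and its other 3 probe sets had 0.07 to 0.14. The 18 measured genes after Bcl11a had a median of 0.15, with 12 above 0 and 6 below. Their groups did not overlap in 9 upward and 0 downward, against 12.3% of all genes upward and 21.6% in either direction. At an unadjusted p under 0.05, 5 were higher and 0 lower, against 8.18% and 4.53% of all genes, and 0 passed (limma).

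Along the whole genome, called genes that are next neighbours among the measured genes were rare. By their brightest probe sets 39 of 18193 genes passed, 0.214%, and there were 2 pairs of neighbours among them: Aftph with Lgalsl, and the embryonic globin genes Hbb-bh1 with Hbb-y on chromosome 7. Chromosome 11 held 8 of the called genes among 1443 measured, including the embryonic globin Hba-x, and its genes outside the neighbourhood had a median change of 0.00. In the trend fit 4.22% of genes passed, and runs of 3 neighbours that stood higher were then found at 10 places, of which Sertad2, Aftph and Lgalsl were 1. A run of 3 was therefore not particular to this stretch under that fit.

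Next to these genes, 2 other stretches of the same arrays bear on the design. Epor, the gene named in the Cre label, had intensities of 1322, 890 and 1199 in the controls and 830, 1013 and 1237 in the knockouts, which overlap, and a log2 change of -0.14 ± 0.21. The 10 measured genes on each side of it had a median of -0.03, and 0 of the 20 passed (limma, 3 at an unadjusted p under 0.05, against 12.7% of all genes, and 1 in the trend fit, against 4.22%). The smallest p-values were those of Ecsit, at -0.49 ± 0.11 (adjusted p = 0.196), and Gm45914, at 0.69 ± 0.18 (adjusted p = 0.228). The 20 around Hba-x, on the same chromosome as Bcl11a and with globins left out, had a median of 0.14, and 0 passed (3 at an unadjusted p under 0.05 and 3 in the trend fit, against the same shares). Cpeb4, an mRNA-binding regulator of translation, had the smallest p among them, at 0.80 ± 0.13 (adjusted p = 0.110), followed by the DNA repair enzyme gene Mpg, at 0.44 ± 0.10 (adjusted p = 0.191).

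**Figure D5:**
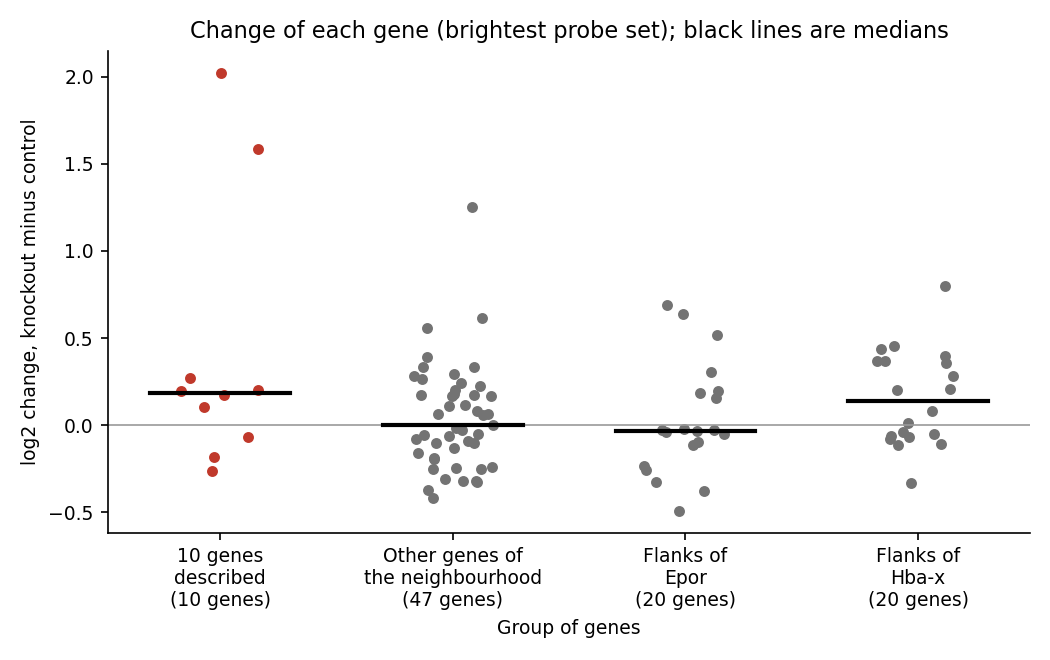
Log2 change (knockout minus control) of each gene by its brightest probe set, for the 10 genes described, the other 47 genes of the neighbourhood, and 20 genes each around Epor and Hba-x; black lines are medians. The medians are 0.18, 0.00, -0.03 and 0.14, and the points above 1 are Aftph and Lgalsl in the first group and Sertad2 in the second.

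Genes that share a function with the 10, but lie elsewhere, were taken from 10 lists with 139 measured genes. None passed (limma), while 20 of the 139 had an unadjusted p under 0.05, against 12.7% of all genes. In the trend fit 13 rose and 2 fell, against 4.22% of all genes in either direction. The medians of the lists lay between -0.15, for pseudouridine synthases, and 0.08, for exportins, importins and Ran. For Aftph, the 14 measured clathrin and adaptor genes had a median of -0.03. The clathrin heavy chain gene Cltc had 0.38 ± 0.11 (adjusted p = 0.265) and the adaptor gene Ap1s1 had -0.20 ± 0.12 (adjusted p = 0.553). For Lgalsl, the 8 measured galectins had a median of -0.07, Lgals1 had -0.33 ± 0.11 (adjusted p = 0.325), and Lgals7, dim at 8.39 and 16.6, had 0.47 ± 0.27 (adjusted p = 0.541).

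For the signalling genes, 16 members of the Rel and NF-kappaB list had a median of 0.00. Ikbkg, the regulatory subunit of the IkappaB kinase, had 0.65 ± 0.12 (adjusted p = 0.139), and Tnfaip3, the inhibitor A20, had -0.50 ± 0.11 (adjusted p = 0.179). The 8 partners of Pellino had a median of -0.03, with the kinase gene Irak2 at 0.56 ± 0.12 (adjusted p = 0.176) and Tbk1 at 0.28 ± 0.09 (adjusted p = 0.318). The 22 ubiquitin-specific proteases and Wnt scaffold genes had 0.07, with Usp10 at 0.38 ± 0.10 (adjusted p = 0.233) and Usp15 at 0.44 ± 0.12 (adjusted p = 0.237).

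For the housekeeping machines, 21 transport receptor and Ran genes had a median of 0.08, with Xpo7, an exportin best known from red cell maturation, at 0.56 ± 0.13 (adjusted p = 0.220) and the pore protein gene Ranbp2 at 0.38 ± 0.10 (adjusted p = 0.236). The 19 genes of poly(A) addition and 3′ end processing had 0.03, with Clp1 at 0.54 ± 0.14 (adjusted p = 0.228) and Fip1l1 at 0.42 ± 0.09 (adjusted p = 0.184). The 12 peroxins had -0.06, with the docking protein gene Pex14 at -0.22 ± 0.11 (adjusted p = 0.483) and Pex16 at -0.32 ± 0.18 (adjusted p = 0.523). In the list of 14 pseudouridine synthases and their partners, Gar1 had -0.20 ± 0.10 (adjusted p = 0.491) and Nhp2 had -0.21 ± 0.11 (adjusted p = 0.495). The 5 genes around the VRK kinases had 0.05, with Banf1 at -0.08 ± 0.09 (adjusted p = 0.760) and Mapk8ip1 at 0.18 ± 0.27 (adjusted p = 0.835).

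All knockouts carried the altered Bcl11a allele and Cre. The controls were Bcl11a +/+, and the titles of neither group name Cre. Several effects on Sertad2, Aftph and Lgalsl cannot be told apart in this design. Among them are the loss of Bcl11a, the altered allele acting on its own chromosome and a difference in the chromosome around the allele. An effect of Cre is another, if the controls lacked Cre. The part of the mix of cells, erythroid cells included, in the values of Aftph and Lgalsl was not tested. Erythroid genes summed to 66965 to 81503 in control and 83429 to 92021 in knockout mice, which do not overlap (5 of 7 above 0). The neutrophil sums and the pre-B and B cell sums, given above, do not overlap either and were lower in the knockouts. Basophil and mast cell genes summed to 7420 to 7924 in control and 5175 to 6881 in knockout mice, which do not overlap (9 of 9 below 0). In the main fit 0 of them passed (limma), against 0.214% of all genes. In the trend fit Mcpt8 alone passed, at a log2 change of -0.42 (limma, adjusted p = 0.0493), against 4.22% of all genes. Megakaryocyte genes summed to 2422 to 2881 and 5053 to 6479, and Itga2b, at means of 513 and 3520, was the 1 of 9 that passed. Without Itga2b, which was left out after its values were seen, the sums were 1883 to 2343 and 1705 to 2806, which overlap, with 5 of 8 above 0. Macrophage genes, at 9575 to 10854 and 10639 to 11382 (5 of 10 above 0), and T and NK cell genes, at 3282 to 3895 and 3396 to 4070 (6 of 7 above 0), had sums that overlap. In the main fit 0 of these passed, and in the trend fit Csf1r alone passed, at a log2 change of 0.28 (limma, adjusted p = 0.0203).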

How the data were processed

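The values used are intensities as deposited, linear in scale, for 45037 probe sets on 6 arrays. Per the labels' protocols, Trizol was used for RNA and biotin-labelled cRNA was hybridised. How probes were summarised, corrected for background and scaled is not stated in any source used here, and there were no detection calls. The lowest value on an array was 0.58 to 0.86, and 775 to 874 values on each were exactly 1.

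The platform annotation named a single symbol for 34945 probe sets, more than 1 for 932 and no gene for 9160. By Entrez ID, 34741 matched the RefSeq table of GRCm38.p6, which gave current names and gene order. A gene stood for the probe set with the highest mean log2 value over the 6 arrays, with the others beside it.

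Intensities became log2(intensity + 16). Arrays differed by at most 0.057 in log2 median and 0.070 in interquartile range, under the limit of 0.1 for renormalizing. The test was limma's (version 3.58.1, R 4.3.3), by lmFit and eBayes without a trend, two-sided, adjusted over all probe sets, threshold 0.05. Alternatives were other normalizations, pseudocounts, filters, moderation, array weights, a replicate block and leaving out each mouse. Mice are labelled as separate animals. The p-values test the difference between groups against the spread between mice, which the fit moderates over all probe sets. The number of arrays limits the precision. The fit was tested on simulated data.

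The 10 genes and the lists were chosen with earlier results of these data known. The text names Bcl11a, the 10 genes with every probe set, genes of the neighbourhood that passed and at least the 3 others with the smallest p, and those that passed and the 2 with the smallest p of each functional list and of the genes flanking Epor and Hba-x, and Epor. Slc1a4 and the other markers named were added after their values were seen.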

Additional observations from a re-analysis of the deposited data

How the results depend on the processing

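Aftph kept its rise under 17 alternatives, at 1.92 to 2.10 on the log2 scale, and lost its call only with a replicate block (adjusted p = 0.0599). Lgalsl kept its direction at 1.39 to 1.69 and lost its call in 8 of 17: with a pseudocount of 1 (adjusted p = 0.0745), with the replicate block (adjusted p = 0.413) and without each mouse. The change of Pus10 ran from -0.13 to 0.01 on leaving out a mouse, turning to 0.015 without knockout mouse 3. The other members, Bcl11a, Sertad2, Cfap36 and Ppp4r3b kept their direction, and Ppp4r3b passed with an intensity trend and robust moderation. No member passed downward under any of the 17.

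Member probe sets called higher numbered 5, 2 with 1 probe set per gene and 1 to 4 on leaving out a mouse: 1 without knockout mouse 2, 2 without knockout mouse 3, and 3 without control mouse 3 or knockout mouse 1. Neighbourhood genes called higher numbered 2, 1 with a pseudocount of 1, 4 with the trend and 1 without any 1 mouse. The median of the members, 0.18, was 0.12 to 0.23 on leaving out a mouse and 0.074 when a gene was given the average over its probe sets. Quantile normalization brought it to 0.11, with Xpo1 at 0.09 in place of 0.20 and Usp34 at 0.03 in place of 0.11. Over all probe sets, 63 higher and 3 lower became 38 and 0 with a pseudocount of 1, 508 and 50 with one of 64, 708 and 145 in the brightest 50%, and 1206 and 239 with the trend; the lower count was 5 with array weights and 7 with 1 probe set per gene. Leaving out a mouse gave 27 to 41 higher and 0 to 1 lower.

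The mouse numbers showed no sign of pairing the samples. Same-numbered mice had deviations correlated at -0.03, -0.01 and -0.04, and 0 of 6 mice correlated best with their own number. Such correlations, of deviations from means of 3 mice, cannot exclude a pairing. With the replicate block 14 probe sets rose and 0 fell, 0 of them of the members, and 0 neighbourhood genes passed. The SEs of the brightest probe sets of the 8 other members were 0.09 to 0.12, which limits what 3 mice a group can detect.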
